A study of Mus musculus with 15 samples.

Results

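Interferon-stimulated antiviral genes were followed in liver RNA of fasted mice given a hepatocyte-directed Cre virus to remove Gata4, against fasted mice given an empty virus. The 43 genes were taken by symbol from a named list, and all 43 were found on 1 row each among the 24965 genes of the authors' deposited table. All mice were male C57BL/6J, 9 weeks old, and carried Gata4 fl/fl alleles in every group, controls included. Control livers had received empty AAV8, an adeno-associated virus, and knockout livers AAV8-Tbg-Cre, in which the hepatocyte-selective Tbg promoter drives Cre. The virus was given at 8 weeks of age and livers were taken 7 days later. Fasted mice had no food for 12 h. The labels list 4 fasted control and 4 fasted knockout livers, and also 4 refed control and 3 refed knockout livers, refed for 12 h on a high sucrose diet (69% sucrose and 10% fat). The sample titles of each group carry a number that all livers of that group share and no other group has. Its meaning is not stated, so whatever it stands for cannot be told apart from genotype and feeding, and the p-values measure only the spread between these livers. Every liver compared here had received an AAV8.

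The file holds 1 comparison and no values per sample, so each gene is given by its mean over all libraries, its log2 fold change with standard error and its adjusted p in the authors' deposited table. The header does not name the groups compared. Genes with a single read in a single library allowed the comparison to be worked out, and 2 of 16 readings fitted their estimates within 1e-05. One is the effect of the knockout in fasted livers, and the other is the effect of refeeding in control livers. The first was taken because the table is named for genotype, and the direction of every value below rests on that choice. Refed livers enter the authors' model but the refed comparison was not analysed here. The authors' deposited table gave Gata4 itself as 0.31 ± 0.15 (SE) on the log2 scale with an adjusted p of 0.361, so it was not lower in the livers labelled knockout. Its unadjusted p in the authors' Wald test was 0.0324, with a 95% interval from 0.03 to 0.60, on the side of higher RNA. The labels do not give the floxed exons and there are no values per exon, so a loss of some exons could not be checked. Relative size factors of the 15 libraries, recovered from the same single reads, lay between 0.912 and 1.11. The hepatocyte markers fixed for the check of the tissue were all present, 10 of 10, with a summed mean of 1.82e+06 normalized counts of 1.80e+07 over all genes in the authors' deposited table.

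Cells sense viral nucleic acid through receptors such as RIG-I and MDA5 and then secrete interferons. Type I interferons bind a receptor whose kinases JAK1 and TYK2 activate transcription factors, and a complex that includes STAT2 and IRF9 then binds the interferon-stimulated response element (ISRE) in the promoters of many antiviral genes. In the liver, hepatocytes and Kupffer cells both carry the receptor and both transcribe these genes at a low basal level without infection.

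The response element gives the gene set a sequence that can be looked for. It was searched as GAAANNGAAA on both strands in RefSeq promoter windows of 300 bases (250 upstream to 50 downstream of a transcription start, build GRCm38.p6), where N is any base and overlapping matches are allowed. Of 32851 windows in that table, 3.44% held a match. A window was given for 33 of the 43 genes, and 15 of these, 45.5%, held a match in any of their windows. The first share is per window and the second per gene, and the 33 genes have 37 windows. Counted per gene, 373 of the 10019 tested genes with a window held a match. The stretches below show the matches in capitals, read 5′ to 3′ on the strand of the gene, for some of the genes with a match, near-identical pairs among them. Capitals that begin with T are the motif read from the opposite strand. The stretch of Ifit1 lies on the plus strand at chr19:34640765-34640833, at positions -124 to -56, where 1 is the first transcribed base. The stretches of its neighbours Ifit3 (chr19:34583353-34583436) and Ifit3b (chr19:34607749-34607832), both on the plus strand, have the same letters throughout. Isg15 (chr4:156200855-156200916, minus strand) held 3 overlapping matches, the most in any of the 33 genes. The copies Oas1a (chr5:120907510-120907565) and Oas1g (chr5:120887596-120887651), both on the minus strand, held overlapping matches next to the start. Trim30a (chr7:104465200-104465249, minus strand), Rsad2 (chr12:26456543-26456592, minus strand) and Stat2 (chr10:128270256-128270305, plus strand) held 1 match each in the windows shown. Ifitm3, whose stretch is not printed, held 2 matches downstream of the start, at positions 3 to 12 and 20 to 29.
Ifit1: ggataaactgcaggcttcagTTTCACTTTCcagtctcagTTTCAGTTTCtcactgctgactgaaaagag
Ifit3: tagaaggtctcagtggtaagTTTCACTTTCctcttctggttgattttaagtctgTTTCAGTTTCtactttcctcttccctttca
Ifit3b: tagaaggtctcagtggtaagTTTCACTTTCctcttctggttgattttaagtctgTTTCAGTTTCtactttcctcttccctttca
Isg15: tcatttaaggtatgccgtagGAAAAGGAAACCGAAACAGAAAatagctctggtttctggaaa
Oas1a: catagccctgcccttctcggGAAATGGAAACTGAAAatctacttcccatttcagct
Oas1g: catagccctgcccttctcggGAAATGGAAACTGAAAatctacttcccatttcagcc
Trim30a: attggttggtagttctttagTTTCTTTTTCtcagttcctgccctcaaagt
Rsad2: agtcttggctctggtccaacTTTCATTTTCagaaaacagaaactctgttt
Stat2: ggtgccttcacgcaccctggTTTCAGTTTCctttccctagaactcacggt

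Part of the antiviral genes were lower in fasted knockout livers, and the 11 that were called stood at 39.6% to 72.0% of the control level. Of the 41 genes with an adjusted p, 11 were called lower (adjusted p under 0.05), 0 were called higher and 30 were not called. The 11 are 26.8% of the genes tested, where 1.60% of all 13335 tested genes were called lower and 2.19% were called in either direction. At an unadjusted p under 0.05, 23 of the 41 genes were lower (56.1%), against 6.21% of all tested genes. The estimate was negative for 40 of 41 genes (97.6%), against 48.1% of every gene tested. Their median log2 fold change was -0.35, or 78.2% of the control level, with quartiles of -0.71 and -0.20. All tested genes had a median of 0.01, with quartiles of -0.12 and 0.11. These counts and medians describe the list and were given no test, since its genes share regulators and are not independent. The list was also chosen with earlier results of these data known, so its shares may in part reflect that choice. Fewer cells of a type that expresses these genes and less of their RNA per cell cannot be told apart in bulk liver.

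The 11 genes called were Zbp1, Ifit1, Ifit3, Xaf1, Oasl1, Trim30a, Samd9l, Irf7, Herc6, Parp14 and Ifitm3, in the order of their log2 fold changes from -1.34 to -0.47. They came from every one of the 9 role groups below, which were drawn with earlier results known, with no group called as a whole. Estimates were smaller at higher means, and the 12 tested genes with a mean of at least 500 normalized counts had log2 fold changes between -0.49 and -0.06. Those called in this range were Ifitm3 and Parp14, at 72.0% and 71.4% of the control level.

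**Figure D1:**
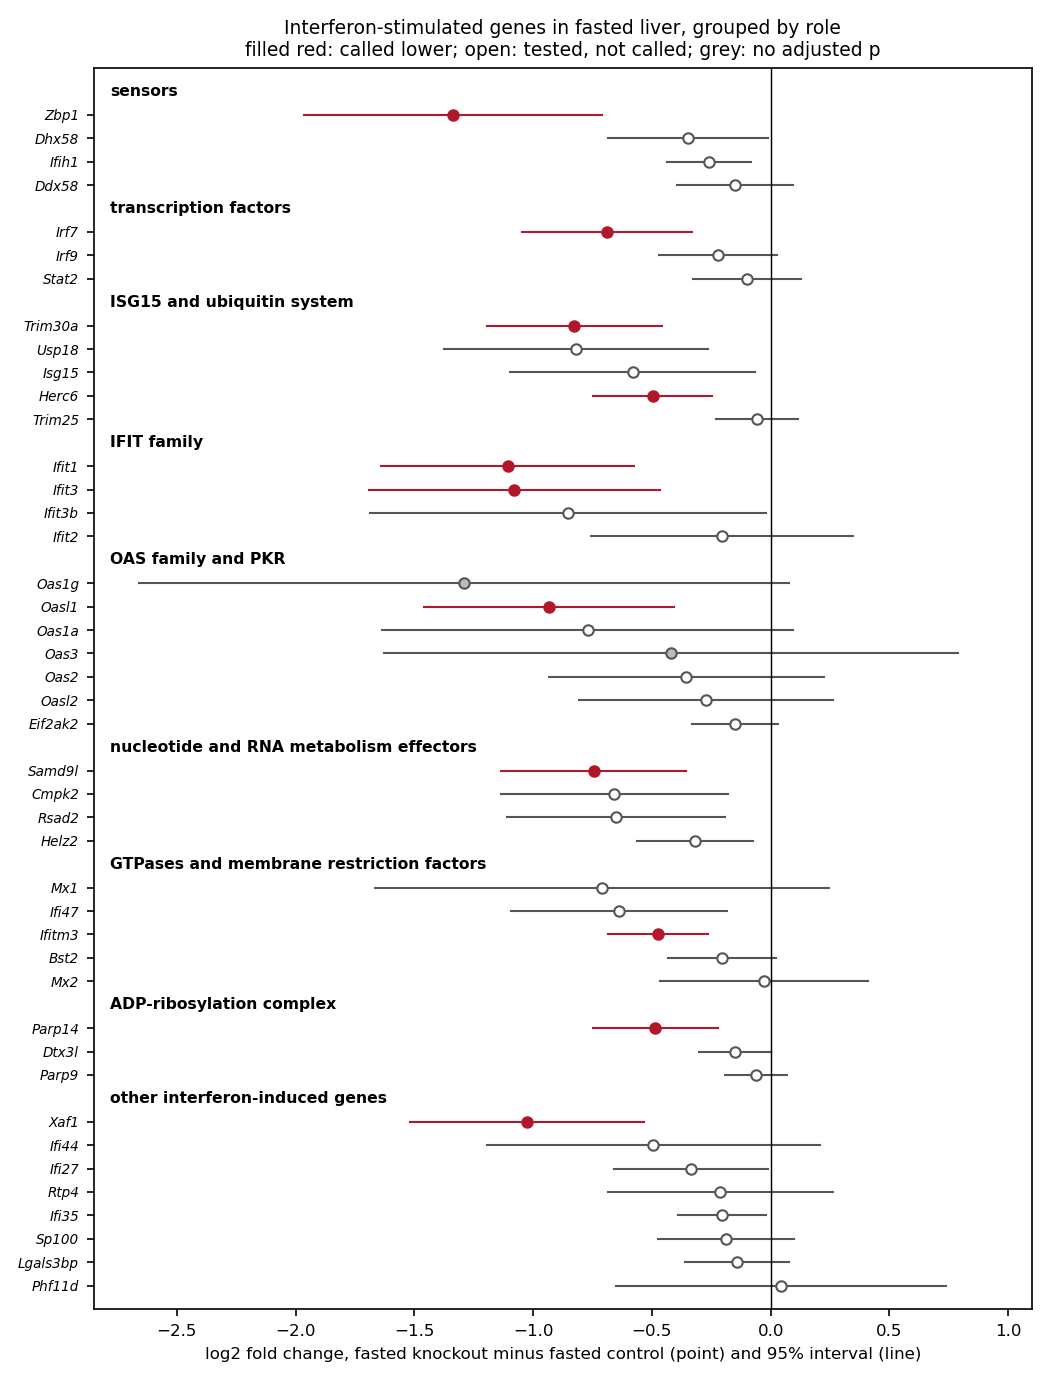
Log2 fold change (knockout minus control in fasted liver, horizontal axis) of each of the 43 genes, grouped by role, with its 95% interval as a line. The 11 filled red points are the genes called lower, grey points are the 2 genes with no adjusted p, and every point but Phf11d lies left of 0.

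Among the sensors of foreign nucleic acid, 1 of 4 was called lower. Zbp1, which binds Z-form nucleic acid and can start necroptosis, was at -1.34 ± 0.32 (SE) on the log2 scale in the authors' deposited table, with a mean of 43.6 normalized counts and an adjusted p of 0.00328. Its level in fasted knockout livers was 39.6% of the control level, with a 95% interval from 25.6% to 61.1%, computed from the authors' deposited table. This was the lowest log2 fold change among the tested members. Ifih1, which encodes MDA5, a sensor of long double-stranded RNA, was not called, at -0.26 ± 0.09 (SE) with an adjusted p of 0.118 in the authors' deposited table. The authors' deposited table gave Dhx58, which encodes the helicase LGP2, as -0.35 ± 0.17 (SE), and Ddx58, which encodes RIG-I, as -0.15 ± 0.13 (SE), with adjusted p of 0.415 and 0.750. The RNA helicases of the group thus had smaller estimates than Zbp1, a difference that was not tested.

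Of the transcription factors that carry the interferon signal, Irf7 was called and the partners Irf9 and Stat2 were not. Irf7, the factor that amplifies interferon transcription after infection and is itself induced by interferon, was at -0.69 ± 0.18 (SE) with a mean of 189.0 normalized counts and an adjusted p of 0.0116 in the authors' deposited table. That is 62.0% of the control level, with an interval from 48.4% to 79.4%, from the authors' deposited table. Irf9, the DNA-binding member of the ISRE complex, was at -0.22 ± 0.13 (SE) and Stat2 at -0.10 ± 0.12 (SE) in the authors' deposited table, with adjusted p of 0.524 and 0.851. Their intervals, from -0.47 to 0.03 for Irf9 and from -0.33 to 0.13 for Stat2, exclude a fall as large as the estimate for Irf7. That estimate has its own interval on the log2 scale, from -1.05 to -0.33, which overlaps that of Irf9. Differences between these factors were not tested.

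ISG15 is a ubiquitin-like protein that is attached to other proteins after interferon, and the group around it and the ubiquitin ligases had 2 of 5 genes called lower. Trim30a, a TRIM protein that restrains inflammatory signalling, was at -0.83 ± 0.19 (SE) with an adjusted p of 0.00148 in the authors' deposited table, or 56.4% of control (interval 43.6% to 72.8%). Herc6, the main ligase for ISG15 in mice, was at -0.50 ± 0.13 (SE) with an adjusted p of 0.00851 in the authors' deposited table, or 70.9% of control (interval 59.6% to 84.3%). Usp18, which removes ISG15 and dampens the receptor, was the nearest of the members that were not called. Its log2 fold change in the authors' deposited table was -0.82 ± 0.28 (SE), close to that of Trim30a, with a larger error and an adjusted p of 0.110. Isg15 itself, at a mean of 47.0 normalized counts, was at -0.58 ± 0.26 (SE) with an adjusted p of 0.332 in the authors' deposited table. Trim25, a ligase that acts on RIG-I, was at -0.06 ± 0.09 (SE) with an adjusted p of 0.906 in the authors' deposited table. Its interval from -0.23 to 0.12 excludes a change as large as the Herc6 estimate, a difference that was not tested.

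The IFIT proteins bind viral RNA and block its translation, and 2 of their 4 genes were called lower. In the authors' deposited table Ifit1 was at -1.11 ± 0.27 (SE) with a mean of 89.1 normalized counts and an adjusted p of 0.00483. Ifit3 was at -1.08 ± 0.31 (SE) with a mean of 85.3 normalized counts and an adjusted p of 0.0311 in the authors' deposited table. Both lay below 50% of the control level by their estimates, at 46.4% (interval 32.1% to 67.2%) and 47.3% (interval 30.9% to 72.3%). Ifit3b had an estimate of -0.85 ± 0.43 (SE) and an adjusted p of 0.421 in the authors' deposited table, at a mean of 19.5 normalized counts. The translated sequences of Ifit3 and Ifit3b have 398 of 403 residues the same (98.8%), so reads of this pair could be split between them and their separate values are uncertain. Ifit2 was at -0.21 ± 0.28 (SE) with an adjusted p of 0.888 in the authors' deposited table. The 4 genes stand in a row on the plus strand of chromosome 19, in the order Ifit2, Ifit3, Ifit3b and Ifit1, within chr19:34550694-34650009. Ifit2, at the end of the row, had the estimate closest to 0, and 7.11 kb separate it from Ifit3. Differences between these neighbours were not tested, because the table does not give how their estimates vary together.

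The OAS enzymes make the second messenger that activates RNase L, and PKR (Eif2ak2) halts translation on double-stranded RNA. Of the 7 genes of this group 5 were tested and 1, Oasl1, was called lower. Oasl1, an OAS-like protein without the enzyme activity that limits translation of Irf7, was at -0.93 ± 0.27 (SE) with a mean of 126.8 normalized counts and an adjusted p of 0.0297 in the authors' deposited table. It stood at 52.4% of the control level, with an interval from 36.3% to 75.5%, from the authors' deposited table. Its neighbour Oasl2, 11.0 kb away on the same strand, was at -0.27 ± 0.27 (SE) with an adjusted p of 0.813 in the authors' deposited table. The remaining OAS genes had low means. Oas1a (mean 12.1 normalized counts) was at -0.77 ± 0.44 (SE) and Oas2 (mean 25.4) at -0.35 ± 0.29 (SE) in the authors' deposited table, with adjusted p of 0.524 and 0.748. Oas1g at -1.29 ± 0.70 (SE) and Oas3 at -0.42 ± 0.62 (SE) had means of 5.76 and 6.20 normalized counts in the authors' deposited table. Both lay below the lowest mean of a gene with an adjusted p, 8.20, so no call was made for either, and the intervals of both include 0. Oas1a and Oas1g share 352 of 367 residues (95.9%), so their reads too may be split. Eif2ak2, with more reads, was at -0.15 ± 0.09 (SE) and an adjusted p of 0.569 in the authors' deposited table, and its interval ends at -0.33.

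Among effectors that act on nucleotides and RNA, 1 of 4 was called lower and the other 3 had negative estimates with intervals below 0 but adjusted p above the threshold. Samd9l, which restricts poxviruses and slows translation, was at -0.75 ± 0.20 (SE) with a mean of 436.8 normalized counts and an adjusted p of 0.0135 in the authors' deposited table. That is 59.7% of the control level (interval 45.5% to 78.2%). Rsad2, which encodes viperin, an enzyme that makes a chain-terminating nucleotide, was at -0.65 ± 0.23 (SE) with an adjusted p of 0.140 in the authors' deposited table. Cmpk2, a mitochondrial nucleotide kinase that feeds that reaction, was at -0.66 ± 0.24 (SE) with an adjusted p of 0.156 in the authors' deposited table. Rsad2 and Cmpk2 lie 12.8 kb apart on opposite strands of chromosome 12 with their starts facing each other, and their estimates differ by less than either standard error. Helz2, a helicase and nuclear receptor coactivator, was at -0.32 ± 0.12 (SE) with an adjusted p of 0.207 in the authors' deposited table.

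Of the GTPases and membrane restriction factors, 1 of 5 was called lower. Ifitm3, which blocks entry of enveloped viruses at the endosome, had the smallest p of all members. In the authors' deposited table it stood at -0.47 ± 0.11 (SE) with an adjusted p of 0.00127 and a mean of 2748 normalized counts, the highest mean of the 43 genes. Its level was 72.0% of control with an interval from 62.2% to 83.2%, from the authors' deposited table. Ifi47, an immunity-related GTPase, was at -0.64 ± 0.23 (SE) with an adjusted p of 0.146, and Bst2, which encodes tetherin, at -0.20 ± 0.12 (SE) with an adjusted p of 0.514 in the authors' deposited table. The dynamin-like GTPase genes Mx1 and Mx2 were at -0.71 ± 0.49 (SE) and -0.03 ± 0.22 (SE) in the authors' deposited table, with adjusted p of 0.644 and 0.987. The table types both as polymorphic pseudogenes, and inbred strains such as this one carry defective Mx alleles, so their RNA is no measure of Mx protein.

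Parp14, Parp9 and Dtx3l act in ADP-ribosylation and lie together on chromosome 16, and 1 of the 3 was called lower. Parp14 was at -0.49 ± 0.13 (SE) with a mean of 688 normalized counts and an adjusted p of 0.0194 in the authors' deposited table. It stood at 71.4% of the control level, with an interval from 59.6% to 85.7%, from the authors' deposited table. Dtx3l, a ubiquitin ligase that works as a dimer with Parp9, was at -0.15 ± 0.08 (SE) with an adjusted p of 0.439 in the authors' deposited table. Parp9 was at -0.06 ± 0.07 (SE) with an adjusted p of 0.834 in the authors' deposited table, the smallest standard error among the members. Dtx3l and Parp9 overlap by 682 bases on opposite strands. The strand setting of the read counter is not given in the sources used here, so reads of that overlap cannot be assigned to either gene.

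The last 8 genes have other or less defined roles, and 1 of them, Xaf1, was called lower. Xaf1, which counters inhibitors of apoptosis, was at -1.03 ± 0.25 (SE) with a mean of 68.3 normalized counts and an adjusted p of 0.00481 in the authors' deposited table. It stood at 49.1% of the control level, with an interval from 34.9% to 69.1%, from the authors' deposited table. Ifi35 was at -0.21 ± 0.09 (SE) with an adjusted p of 0.349 and Ifi27 at -0.34 ± 0.17 (SE) with an adjusted p of 0.412 in the authors' deposited table. The estimates of Ifi44, Rtp4, Sp100 and Lgals3bp lay between -0.49 and -0.14, each with an interval that includes 0. Phf11d, at a mean of 24.3 normalized counts, had the highest estimate of all members, 0.04 ± 0.35 (SE) with an adjusted p of 0.988 in the authors' deposited table.

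On either side of the threshold the adjusted p left a gap. Parp14, Oasl1 and Ifit3 were the nearest called members, at 0.0194, 0.0297 and 0.0311, and Usp18, Ifih1 and Rsad2 the nearest not called, at 0.110, 0.118 and 0.140 in the authors' deposited table. Of the 30 genes not called, 12 had an unadjusted p under 0.05, each with a negative estimate. Over the 41 tested genes the 95% interval excluded a fall of 1 on the log2 scale for 24 and lay wholly within 0.5 of 0 for 13. Estimates of at least a 1 log2 fall were found for 4 tested genes, Zbp1, Ifit1, Ifit3 and Xaf1. The intervals of Mx1, Ifi44 and Oas1a held both 0 and a fall of 1, and those of Isg15 and Ifit3b held a fall of 1 and ended just below 0.

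The size of the estimates differed with the mean. Of the 17 tested members with a mean under 100 normalized counts, 5 were called lower and the median log2 fold change was -0.71, with a median SE of 0.28. In the range from 100 to 500, 4 of 12 were called lower with a median of -0.42. At 500 and over, 2 of 12 were called lower with a median of -0.18, where the median SE was 0.11. The shares of all tested genes called lower in these ranges were 1.05%, 1.38% and 2.39%, beside 5 of 17, 4 of 12 and 2 of 12 members. Medians of all tested genes in the 3 ranges were between -0.02 and 0.02, while the median of the members moved towards 0 as the mean rose. A mean in normalized counts also depends on transcript length and was not compared between genes as a level.

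**Figure D2:**
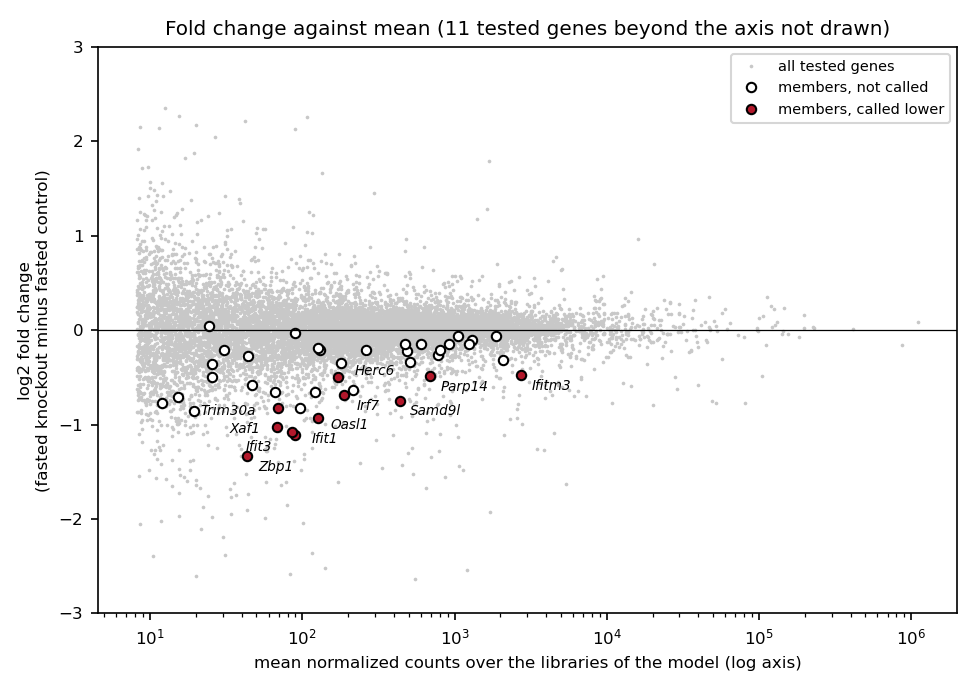
Log2 fold change in fasted liver (vertical axis) against mean normalized counts (horizontal log axis) for all tested genes in grey and the 41 tested members as circles, red where called lower. All but 1 of the members lie below 0, farthest from it at means under 100, and 11 tested genes beyond the vertical axis are not drawn.

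The promoter matches did not separate called from uncalled genes. Among tested members with a window, 4 of 13 with a match and 5 of 18 without one were called lower. The median log2 fold change was -0.58 with a match (range -1.11 to -0.10) and -0.30 without one (range -1.03 to 0.04), and the ranges overlap over nearly their whole length. Ifit1, Ifit3, Trim30a and Ifitm3 were the called genes with a match, while Xaf1, Oasl1, Samd9l, Irf7 and Herc6 had none in the window. The called genes Zbp1, which had the lowest estimate, and Parp14 had no window and could not be placed. Stat2, which held a match, was among the members with estimates near 0. No match says only that these letters are absent from 300 bases. Of 25 matches in members, 19 lay wholly upstream of the start, and positions ran from -222 to 42. In 8 of the 15 genes with a match there were 2 or more. The Ifit1 stretch printed above holds 2, and the Isg15 matches share bases with each other.

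Over the whole table the match went with a small difference. Of 373 tested genes with a match, 2.68% were called lower, against 1.46% of 9646 without one. With the members left out these shares were 1.67% of 360 and 1.41% of 9628. The gamma-activated site, a second interferon-responsive element, searched as TTCNNNGAA on both strands, was found in 8.30% of all windows and in 6 of the 33 members (18.2%). Genes outside the list that had an ISRE match and were called were looked up after their values were seen. In the authors' deposited table these were Ddx60, Parp4, Trim26, Apol9a, Trim12a and H2-T22, all lower, and Plxnc1 and Vldlr, both higher. Parp4, a vault particle protein, was at -0.46 ± 0.11 (SE) with an adjusted p of 0.00586 in the authors' deposited table.

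**Figure D3:**
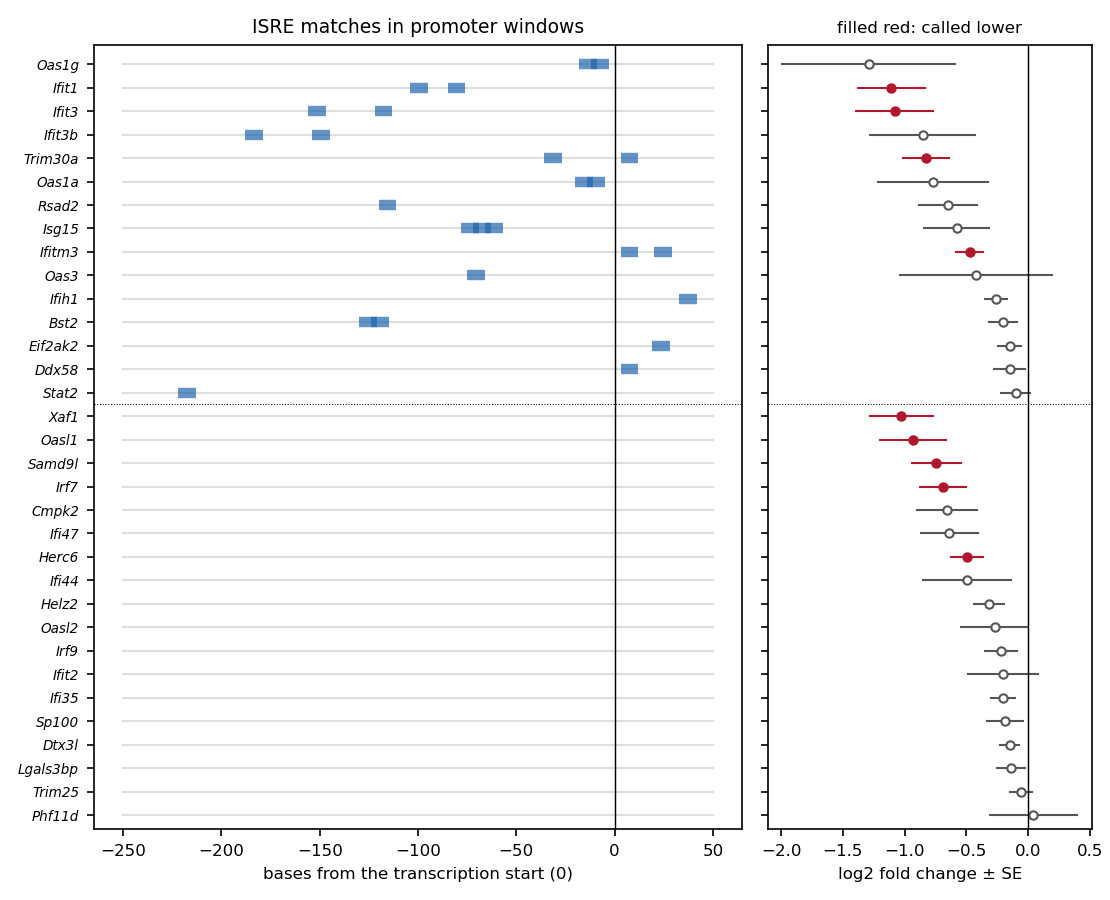
Positions of ISRE matches (blue, left) in bases from the transcription start for the 33 genes with a promoter window, beside their log2 fold change ± SE (right, red where called lower). The 15 genes with a match are above the dotted line, Trim30a shows 1 match from each of its promoter windows, and called genes stand on both sides of the line.

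Beside the called members Zbp1 and Irf7, genes of interferon sensing and signalling outside the list were looked at, and none of those reported here was called. No interferon gene could be followed: of 21 ligands only Ifng was listed, with a mean of 0.195 normalized counts in the authors' deposited table and no adjusted p. Of 8 tested receptor and kinase genes, 0 passed the authors' DESeq2 Wald test and 0 had an unadjusted p under 0.05, with a median of -0.05. The receptor chain Ifnar1 was at -0.10 ± 0.08 (SE) with an adjusted p of 0.767, and the kinase Tyk2 at -0.10 ± 0.10 (SE) with an adjusted p of 0.825 in the authors' deposited table. Chosen after their values were seen, Ifnar2 was at -0.05 ± 0.09 (SE) and Jak1 at -0.05 ± 0.06 (SE) in the authors' deposited table. The intervals of these 4 genes reach no lower than -0.29. Among 20 tested genes of nucleic acid sensing and interferon induction, 0 passed the test and 1 had an unadjusted p under 0.05, with a median of -0.06. The smallest p there was that of Unc93b1, which escorts Toll-like receptors to the endosome, at -0.20 ± 0.09 (SE) with an adjusted p of 0.336 in the authors' deposited table, followed by Trim56 at -0.19 ± 0.13 (SE) with 0.617. Of 6 other interferon regulatory factor genes tested 0 were called and 0 had an unadjusted p under 0.05. Irf1 was at -0.22 ± 0.15 (SE) and the corepressor gene Irf2bp2 at 0.31 ± 0.17 (SE) in the authors' deposited table, with adjusted p of 0.634 and 0.496.

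Genes listed as brakes on interferon signalling had estimates on both sides of 0. The list also held Isg20, which is an interferon-induced antiviral exonuclease and not a brake. Of 11 tested, 0 passed the authors' DESeq2 Wald test, while 2 had an unadjusted p under 0.05, and 4 had a negative estimate, with a median of 0.10. Without Isg20 the median of the 10 others was 0.08 and 4 were negative. Socs3, a cytokine-induced inhibitor of JAK kinases, was at 0.51 ± 0.25 (SE) with an adjusted p of 0.424, and Isg20 at 0.75 ± 0.38 (SE) with an adjusted p of 0.439 in the authors' deposited table. Cish, another cytokine-induced inhibitor, chosen after its value was seen, had the estimate farthest from 0 in the list, -0.80 ± 0.63 (SE) with an adjusted p of 0.724 in the authors' deposited table. None of these passed the threshold.

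Other genes known to be induced by type I interferon, outside the 43, were called lower in 8 of 60 tested, and 45 of the 60 had negative estimates with a median of -0.17. Parp12 had the smallest p of these, at -0.51 ± 0.09 (SE) with an adjusted p of 1.8e-05 in the authors' deposited table. The helicase gene Ddx60 was at -1.01 ± 0.20 (SE) with an adjusted p of 0.000126, and Ifi27l2b at -2.10 ± 0.48 (SE) with an adjusted p of 0.00148 in the authors' deposited table. The ligase genes Trim26 at -0.30 ± 0.08 (SE) and Trim14 at -0.78 ± 0.22 (SE) had adjusted p of 0.0108 and 0.0203 in the authors' deposited table. Among genes of the interferon gamma response, antigen presentation and the immunoproteasome, 3 of 30 were called lower and 29 of 30 had negative estimates, with a median of -0.23. They were the proteasome subunit Psmb8 at -0.69 ± 0.17 (SE), the GTPase Iigp1 at -0.64 ± 0.16 (SE) and the class I gene H2-T22 at -0.27 ± 0.08 (SE) in the authors' deposited table, with adjusted p of 0.00321, 0.0053 and 0.0461. No gene of either list was called higher. Over all tested genes, 1.6% were called lower and 48.1% had negative estimates. Both lists were chosen with earlier results of these data known.

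**Figure D4:**
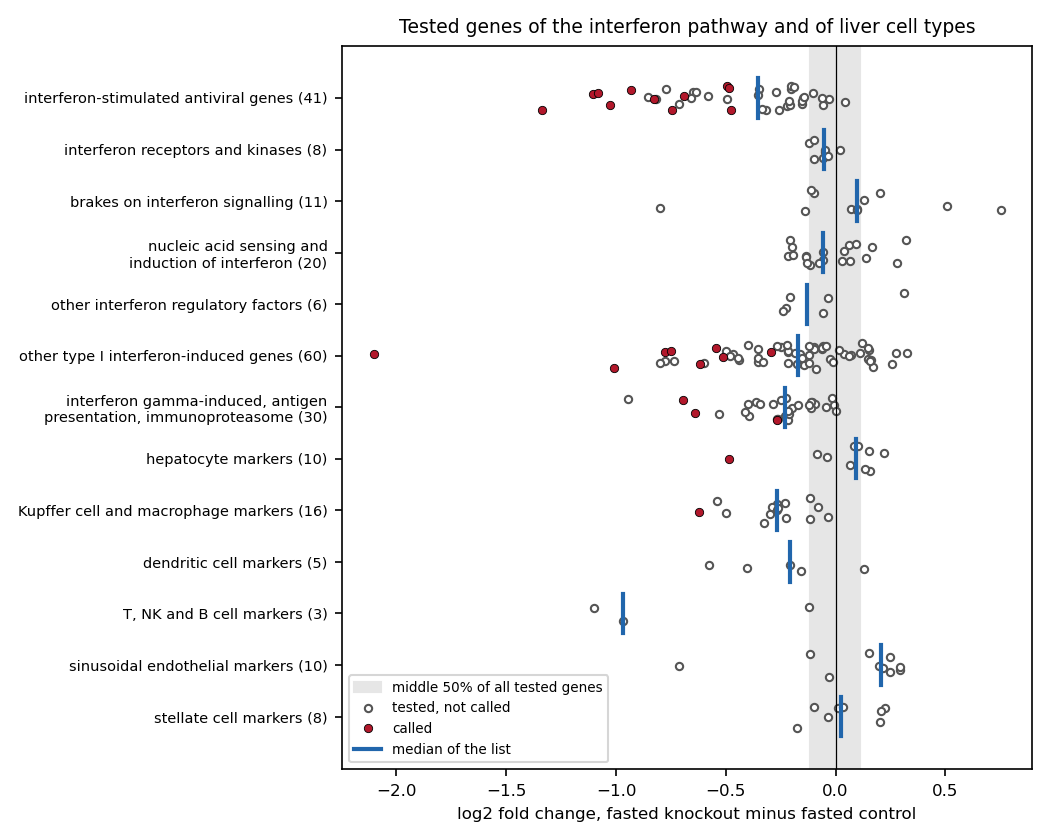
Log2 fold change in fasted liver of each tested gene (circle, red where called) in lists of the interferon pathway and of liver cell types, with the number tested in parentheses and the median of each list as a blue bar. Grey marks the middle 50% of all tested genes, from -0.12 to 0.11. The antiviral, interferon-induced and macrophage lists lie mostly left of the grey, as do the short lists of dendritic cell and of T, NK and B cell markers.

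Several lists of markers of other cells had negative medians too. All 16 markers of Kupffer cells and macrophages, which respond to interferon, had negative estimates, with a median of -0.27. In the authors' DESeq2 Wald test 3 of the 16 had an unadjusted p under 0.05, and 1 was called lower. The called gene was Mpeg1, a pore-forming protein of phagocytes, at -0.62 ± 0.12 (SE) with an adjusted p of 8.7e-05 in the authors' deposited table. The defining markers Clec4f at -0.27 ± 0.13 (SE) and Adgre1 at -0.33 ± 0.19 (SE), chosen after their values were seen, had adjusted p of 0.432 and 0.518 in the authors' deposited table. The 16 markers had a summed mean of 3525 normalized counts and none was at 0, and levels per group cannot be given from this table. Of 14 markers of T, NK and B cells, with a summed mean of 183 normalized counts, 3 were tested and 0 called by the authors' DESeq2 Wald test, with 2 at an unadjusted p under 0.05. Cd4 at -0.97 ± 0.45 (SE) and Cd3e at -1.10 ± 0.55 (SE) had adjusted p of 0.361 and 0.424 in the authors' deposited table.

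The remaining cell lists had medians on both sides of 0. Of 11 dendritic cell markers 5 were tested and 0 called, with 1 at an unadjusted p under 0.05 and a median of -0.21, with Zbtb46 at -0.40 ± 0.19 (SE) and Tcf4 at 0.13 ± 0.11 (SE) in the authors' deposited table, at adjusted p of 0.365 and 0.735. Siglech and Ccr9, markers of the plasmacytoid cells that can make large amounts of interferon, had means of 5.88 and 2.76 normalized counts in the authors' deposited table and no adjusted p. Of 10 sinusoidal endothelial markers 0 were called, 7 had positive estimates and the median was 0.21. At an unadjusted p under 0.05 there were 3, of which 2 were higher and 1 lower. Fcgr2b, an Fc receptor, was at 0.29 ± 0.12 (SE) and Lyve1, a hyaluronan receptor, at -0.71 ± 0.33 (SE) in the authors' deposited table, with adjusted p of 0.244 and 0.364. The third, Clec4g, named after its value was seen, was at 0.25 ± 0.12 (SE) with an adjusted p of 0.368 in the authors' deposited table. Among the 10 hepatocyte markers Apoa1 was called lower, at -0.48 ± 0.11 (SE) with an adjusted p of 0.00134 in the authors' deposited table, and the median was 0.09. The 8 stellate cell markers had a median of 0.02 and 0 were called, with Dcn at 0.21 ± 0.15 (SE) and Reln at 0.22 ± 0.18 (SE) in the authors' deposited table, at adjusted p of 0.680 and 0.738. The 1 tested neutrophil marker, Csf3r, had an estimate of 0.23 ± 0.37 (SE) in the authors' deposited table. The part of these cells in the lower antiviral genes was not tested.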

How the data were processed

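Per the labels' protocols, RNA of frozen livers was purified by TRIzol and RNeasy, and a KAPA kit that keeps strand was used for the libraries. Per the submitters' processing notes the tools included FastQC, STAR 2.6.0c and DESeq2 with genome mm10. Which counter, strand setting and annotation were used is not given in the sources used here. Per the file headers, the authors deposited a table of DESeq2 results: a mean expression signal (counts divided by size factors, averaged over libraries), a log2 fold change and the standard error of that change, a Wald score, a p-value and a Benjamini-Hochberg adjusted p-value. The planned tests of counts could not be run, because the table holds no values per sample, so the deposited test was read as it stands. Of 24965 genes, 13335 had an adjusted p, and a gene was called where it was under 0.05.

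From these values 95% intervals (estimate ± normal quantile times SE) and percent of control were computed with Python 3.11.15, pandas 2.3.3 and scipy 1.17.1. Single-read genes, 166 in all, were set against 16 readings of the model. Coordinates are from GENCODE on GRCm38 (mm10), and promoters from RefSeq on GRCm38.p6, matched by symbol. Protein identity was computed from the longest reading frames of GENCODE transcripts. Counting of calls and the motif search were tested on simulated data. The members and all gene lists were chosen with earlier results of these data known.

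Members named with values were each called member, the 2 of smallest p in each role, the lowest and highest estimates, the 3 nearest the threshold on each side and those with no adjusted p. Further members are named to complete their role. In other lists the called genes, up to 5, or else the 2 of smallest p were named. Alternatives changed the adjustment, the filter on the mean, the threshold, the centring, near-identical copies and the motif. One gene of the signalling chain is not reported here.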

Additional observations from a re-analysis of the deposited data

How the results depend on the processing

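The count of 11 members called lower stood at 9 to 11 in most alternatives. It was 9 of 43 when p-values were adjusted over every gene with a p, where 0.666% of all genes were called lower. There Ifit3 moved to 0.0581 and Oasl1 to 0.0556. Without near-identical copies it was 10 of 38, beside 1.6% of all genes. With a mean of at least 10 it was 11 of 41 (1.67% of all genes lower), as with 1 row per named gene (1.61%). The count was also 11 of 41 at a threshold of 0.1 (2.26%) and with values re-centred on the median of tested genes (1.69%). It fell to 6 of 24 when only genes with a mean of at least 100 were tested, where 2.02% of all genes were called lower and Ifit1, Ifit3, Trim30a, Xaf1 and Zbp1 were not tested because their means are lower. At an adjusted p under 0.01 it was 6, where 0.967% of all genes were called lower, and Ifit3, Irf7, Oasl1, Parp14 and Samd9l were lost. Negative estimates numbered 24 of 24 at a mean of at least 100 and 40 of 41 after re-centring. The median of -0.35 lay between -0.36 and -0.28 with re-centring, without copies or as a weighted mean, and was -0.24 at a mean of at least 100. Members with an ISRE match numbered 11 in upstream bases alone, 13 with the motif followed by C and 18 with its last A left out, against 15. No result changed direction under the alternatives run. These alternatives reuse the deposited estimates, so they could not have reversed the direction of a called gene. No paired analysis was possible because the file analysed gives no value for single livers, and for the same reason leaving out a replicate and another normalization were not run. The reading of the comparison, on which each direction rests, was not settled by the single-read genes and was taken from the table's name. Low means limit precision: the median SE of tested members was 0.20 against 0.14 over all tested genes.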

Other observations

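Overlap with other annotated genes touches 16 of the 43 members, and for 13 of them the overlapping gene is itself in the table. The longest overlap is that of Herc6, a called member, with Gm45193 on the same strand (45031 bases), a gene that is not a row of the table. The next are those of Rtp4 with Gm45338 on the same strand (39791 bases), Ifi47 with Olfr56 on the same strand (20388 bases) and Usp18 with the opposite-strand Gm44148 (15715 bases). How reads in these overlaps were counted is not given in the sources used here. Among other called members, Irf7 overlaps Phrf1 by 45 bases, Oasl1 overlaps Gm13822 by 38 bases and Parp14 overlaps Gm49730 by 1773 bases, each a gene of the table.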
